A study of Mus musculus with 12 samples.

Results

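Cyclic AMP (cAMP) and protein kinase A (PKA) signalling was described across 62 genes, chosen from the 55304 gene rows of the deposited table by their symbols alone. The symbols took in the adenylyl cyclases (*Adcy*, 10 genes), the cyclic nucleotide phosphodiesterases (*Pde*, 24 genes), the regulatory (4 genes) and catalytic (2 genes) subunits of PKA, its inhibitors (*Pki*, 3 genes), the numbered A-kinase anchoring proteins (*Akap*, 13 genes), 3 factors of the CREB family (*Creb1*, *Crem*, *Atf1*) and their 3 coactivators (*Crtc1* to *Crtc3*). No measured value entered this rule, though earlier results of these data were known when the genes were chosen. Of the 62 genes, 60 passed the filter on low values and were tested. *Akap4* and *Pde6a* did not pass, and held no more than 2 and 4 reads in any library.

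The data were RNA-seq of *Pomc*-eGFP cells sorted from the anterior pituitary of male mice of the POMC-GFP genotype, bred on a C57Bl6/J background. The study's methods give the mice as 8 weeks old. The schedule before collection ran for 8 weeks, and the age at collection was not stated. In these mice the *Pomc* promoter drives the fluorescent protein. The sort therefore depended on the activity of a promoter that is itself under glucocorticoid control. The 4 groups were untreated control mice, mice given the synthetic glucocorticoid dexamethasone (DEX) at 2.5 µg/ml in drinking water for 4 weeks, and mice killed 1 week (7 days) and 4 weeks (28 days) after the same treatment was withdrawn. Each group had 3 pools (n = 3), each of sorted cells from up to 3 pituitaries, and the replicates in every test are pools. Every group carried the transgene and was collected in the morning rest period at the end of the same schedule, and the small amounts of RNA were amplified before sequencing.

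Between 7719894 and 12848078 reads lay on genes in a library, and 1 read was worth 0.0787 to 0.127 CPM, the normalised unit used for all levels here. *Pomc* was high in every library, at 4241 to 8521 in DEX and 34562 or more in all other pools. The other corticotroph markers did not follow it in every pool: *Tbx19*, the T-box factor of the lineage, was at 498 to 1490 in DEX, at 218 to 459 in control and at 39.5 in pool 3 of the 1 week group. That pool also had the lowest mean correlation with the other libraries (0.924). Growth hormone (*Gh*, 67563 to 265851) and prolactin (*Prl*, 31498 to 119783) were high everywhere, so that transcripts of somatotrophs and lactotrophs were in every pool, and a level below is that of the sorted pool. In such bulk samples, fewer cells of a type and less RNA per cell cannot be told apart.

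In corticotrophs, corticotrophin-releasing hormone binds a receptor coupled to a stimulatory G protein, and adenylyl cyclase then makes cAMP from ATP. Cyclic AMP releases the catalytic subunits of PKA from the regulatory subunits, and the free kinase phosphorylates ion channels, enzymes and the CREB factors, so that ACTH is secreted and *Pomc* transcription rises. Phosphodiesterases break cAMP and cGMP down, anchoring proteins hold PKA near its targets, small PKA inhibitor proteins bind the catalytic subunit, and the CRTC proteins join CREB on its targets. *Crem* codes for both activators and repressors, among them the inducible repressor ICER, which is made from an internal promoter that cAMP itself turns on. The gene-level values used here add all these forms together.

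CREB family factors bind the cAMP response element, whose full form is the palindrome TGACGTCA. RefSeq promoters (GRCm38.p6, windows of 300 bases that end shortly after a start) were found for 49 of the 62 genes, with 94 starts, and no promoter of *Crem* was among them. The full element lay in 2.13% of these promoters and in 1.79% of all 32851, and its core of 5 bases (TGACG, or CGTCA for the other strand, both contained in the full element) in 20.2% and 20.8%. Both full matches were at starts of *Prkar1a*, the most abundant gene of the set, and are the same bases. They are shown because the gene codes for the kinase's main regulatory subunit here. The window lies on the + strand at chr11:109650889-109650918, within the span of the GENCODE M21 model of *Prkar1a*. The first base of the element is 49 bases upstream of one RefSeq start and 38 bases downstream of another. The capitals mark the element.
*Prkar1a*: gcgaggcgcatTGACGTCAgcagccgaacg
A match of letters is a description and was not measured as a binding site.

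To set genes beside each other, CPM was divided by kilobases of exon. The transcript of *Prkar1a*, which codes for the type I alpha regulatory subunit, had the highest level per kilobase, with a median of 173 over the 12 pools (range 131 to 252). *Prkar1b* followed at 53.5 (30.3 to 104), its highest pool below the lowest of *Prkar1a*, and the type II subunits *Prkar2b* (7.76) and *Prkar2a* (3.38) were lower still. The catalytic subunits *Prkaca* (median 19.6, range 3.59 to 52.3) and *Prkacb* (21.2, range 10.4 to 24.3) overlapped. *Crem* had a median of 32.7 (9.36 to 54.0), and its lowest pool lay above the highest pools of *Atf1* (6.37) and *Creb1* (3.22).

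Among the cyclases, *Adcy2* (median 5.10) and *Adcy6* (5.11) led on the same scale with overlapping ranges, followed by *Adcy5* (2.96) and *Adcy3* (2.38). *Adcy9* reached 0.509, and *Adcy1*, *Adcy4*, *Adcy8* and *Adcy10* had medians of 0.140 or less. *Pde6d*, which codes for a carrier of prenylated proteins rather than for an enzyme that cleaves cyclic nucleotides, had the highest level of the *Pde* genes (20.6, range 17.5 to 32.0). The enzymes *Pde4a* (6.38), *Pde4b* (5.21), *Pde10a* (5.14) and *Pde1a* (4.01) came next with ranges that overlapped. *Pkig* (14.4) led the inhibitors, *Akap11* (9.19) and *Akap8* (5.87) the anchoring proteins, and *Crtc2* (13.5) the coactivators.

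**Figure D1:**
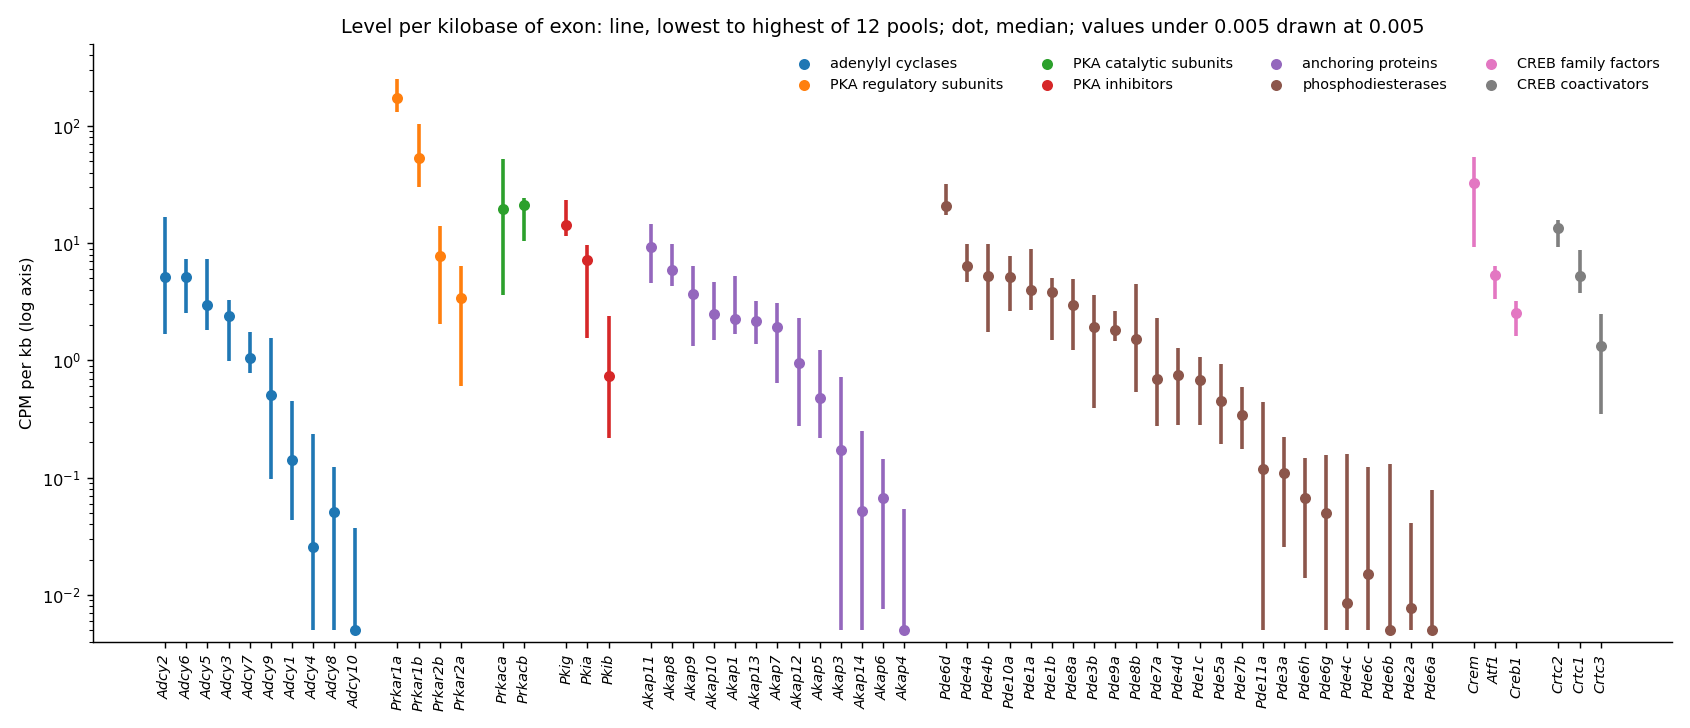
Level of each of the 62 genes in CPM per kilobase of exon (log axis), grouped by role, with a line from the lowest to the highest of the 12 pools and a dot at the median. *Prkar1a* stands at the top with a median of 173, and the medians run down to 0 for *Adcy10*, *Akap4*, *Pde6a* and *Pde6b*, which are drawn at 0.005.

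The question of whether DEX or its withdrawal changed these transcripts was tested with limma on log2(value + 0.1) over all 24736 genes that passed the filter, and an adjusted p under 0.05 was called. In the F test over the 4 groups none of the 60 genes was called, against 0.315% of all genes. None was called between DEX and control (background 0.121%), between 1 week after withdrawal and control (0%) or between 4 weeks after withdrawal and control (0%). *Crem* was the 1 gene called between 1 week after withdrawal and DEX (background 0.433%). Against DEX, no gene was called at 4 weeks (0.873%), and the 4 weeks and 1 week groups did not give a call when set against each other (0%). These comparisons share groups and are not independent of each other.

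At an unadjusted limma p under 0.05, 9 of the 60 genes passed for DEX against control (background 6.8%). The withdrawal groups gave 3 genes at 1 week (3.79%) and 5 at 4 weeks (6.35%) when set against control, and 11 (10.8%) and 8 (9.94%) when set against DEX. The 2 withdrawal groups set against each other gave 4 (5.47%). edgeR's quasi-likelihood test on the recovered reads called *Crem* alone, and only between 1 week and DEX (background 0.586%). It called none of the 60 in the F test (0.667%), for DEX against control (0.182%), at 1 week (0.00809%) and at 4 weeks (0%) against control, at 4 weeks against DEX (0.865%) or between the withdrawal groups (0%). edgeR's likelihood ratio test called 5 of the 60 genes over the 4 groups (*Crem*, *Adcy2*, *Pde8b*, *Prkaca*, *Adcy4*; background 4.23%). Between groups it called 1 for DEX against control (1.09%), 0 at 1 week (0.202%) and at 4 weeks (0.38%) against control, 5 at 1 week (2.88%) and 1 at 4 weeks (2.72%) against DEX, and 1 for 4 weeks against 1 week (0.655%). DESeq2 called 3 over the 4 groups (*Crem*, *Adcy2*, *Pde8b*; background 3.68%). Between groups it called 1 for DEX against control (0.977%), 0 at 1 week (0.0324%) and at 4 weeks (0.342%) against control, 3 at 1 week (3.02%) and 2 at 4 weeks (3.21%) against DEX, and 0 for 4 weeks against 1 week (0.0932%). *Crem* was among the calls of both tools in each of these comparisons where a call was made, except between 4 weeks and 1 week, where the likelihood ratio test called *Prkaca*.

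Over the 60 genes the median log2 fold change between DEX and control was -0.02, as it was over all genes (-0.02). It was -0.12 (all genes 0.00) at 1 week and -0.10 (0.00) at 4 weeks against control. In DEX the 3 pools lay wholly above the control pools for 4 genes (*Akap1*, *Akap10*, *Crtc2*, *Pde1b*; background 6.61%) and wholly below for 6 (*Adcy10*, *Akap3*, *Crem*, *Pde1c*, *Pde4b*, *Pde4d*; 6.23%). As shares of the 60 genes these are 6.67% and 10%.

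**Figure D2:**
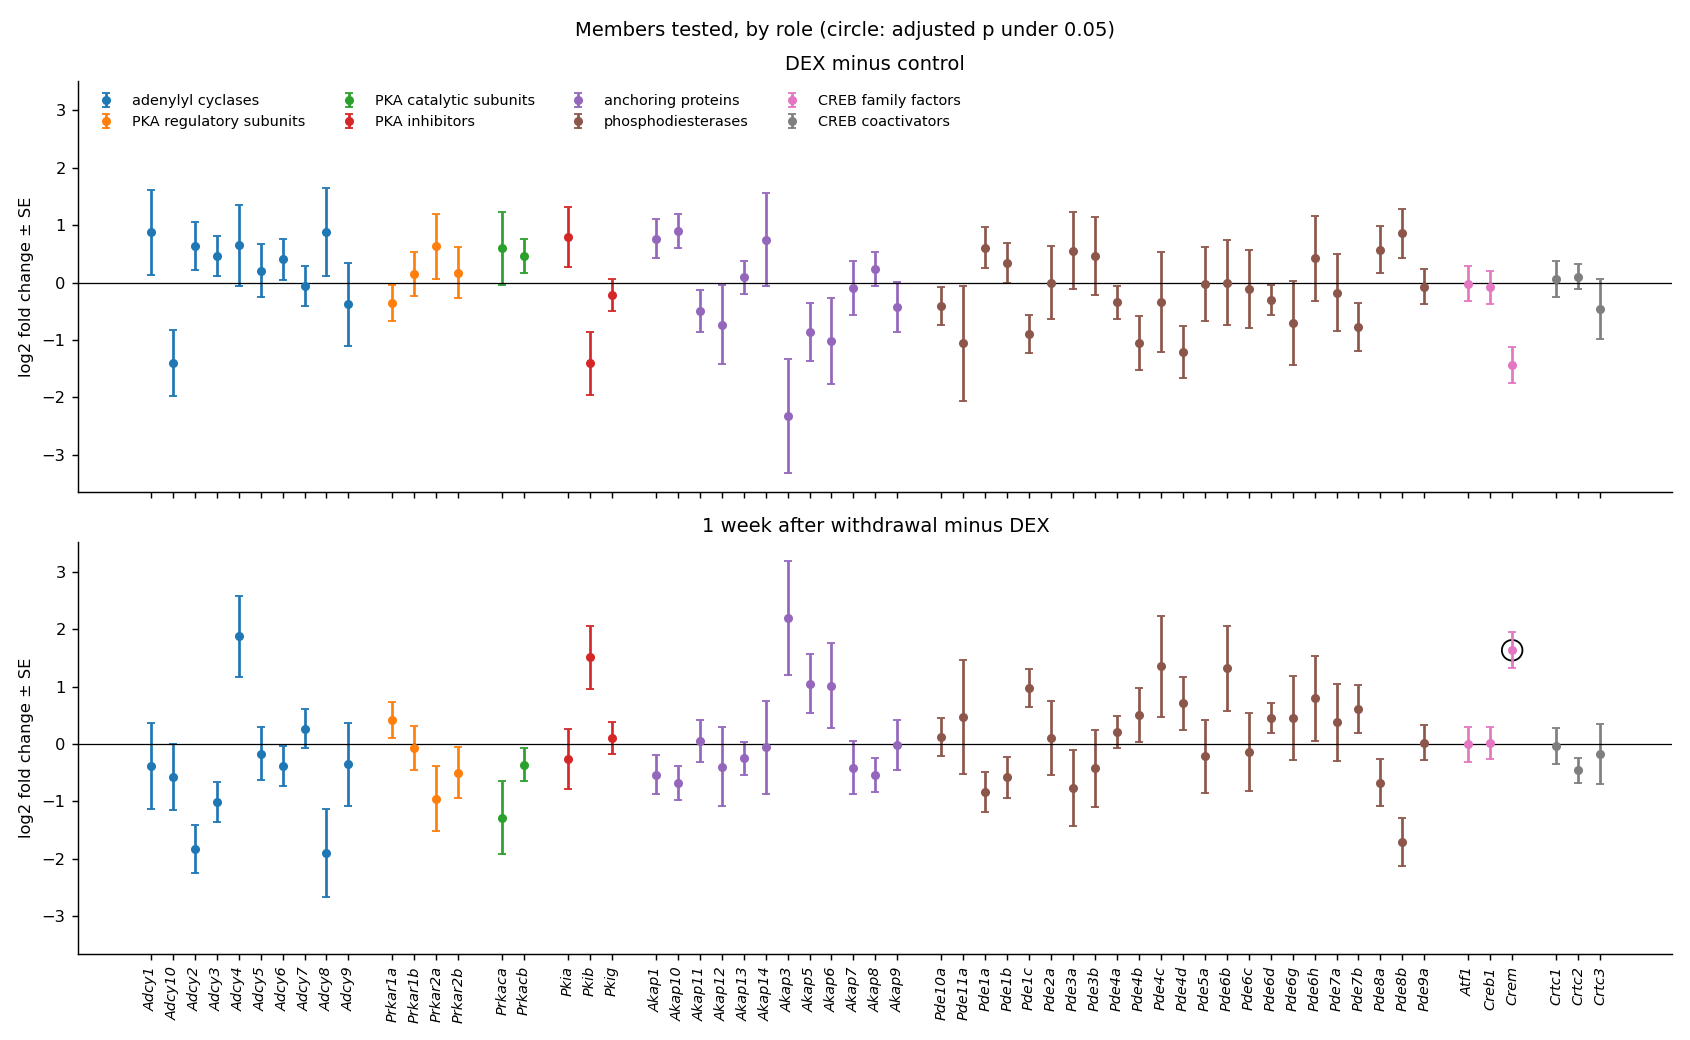
log2 fold change ± SE from limma for the 60 tested genes by role, for DEX minus control (upper) and 1 week after withdrawal minus DEX (lower), 3 pools a group. Most genes scatter about 0, and *Crem*, at -1.44 above and 1.63 below, carries the 1 circle that marks an adjusted p under 0.05.

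*Crem* was the 1 gene of the set that passed the test in any comparison. Its normalised read count was 195, 319 and 191 CPM in the control pools, 94.2, 115 and 55.2 in the DEX pools, 295, 313 and 195 in the pools 1 week after withdrawal, and 253, 183 and 190 in those 4 weeks after it. All 3 DEX pools lay below each of the 9 other pools, which overlapped among themselves. The mean was 235 ± 72.4 (SD, n = 3) in control and 88.2 ± 30.4 in DEX, and stood at 267 ± 63.6 and 209 ± 38.7 after withdrawal.

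The rise of *Crem* between DEX and 1 week after withdrawal passed the test, with a log2 fold change of 1.63 ± 0.31 (SE; limma adjusted p = 0.0297). The difference between DEX and control was -1.44 ± 0.31 (limma adjusted p = 0.103), and that between 4 weeks and DEX 1.29 ± 0.31 (limma adjusted p = 0.0689), so neither passed. Against control the values were 0.20 ± 0.31 at 1 week and -0.14 ± 0.31 at 4 weeks. The exact two-sided permutation p was 0.1 for DEX against each other group, the smallest that 3 pools against 3 can give. The call between 1 week and DEX was lost without DEX pool 1 (limma adjusted p = 0.114), DEX pool 3 (0.177), 1 week pool 1 (0.0627), 1 week pool 2 (0.0784), 4 weeks pool 2 (0.0530) or 4 weeks pool 3 (0.0522), with log2 fold changes of 1.33 to 1.86 over all leave-outs.

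The summed level of the 6 corticotroph markers, which is nearly all *Pomc*, was lowest in DEX, as *Crem* was. It was 5558 to 9417 in DEX, 35294 to 75533 in control, 43869 to 286223 at 1 week and 48721 to 80895 at 4 weeks. Of the 6 markers, 1 (*Pomc*) had all DEX pools below every other pool and 2 had them above, *Tbx19* and the vasopressin receptor *Avpr1b* (103, 67.9 and 130 in DEX, 60.03 or less elsewhere). The summed level of 8 macrophage and myeloid markers was also lowest in DEX. It was 26.7 to 43.0 in DEX, 63.3 to 154 in control, 110 to 184 at 1 week and 121 to 277 at 4 weeks. Of the 8, 3 (*Cd74*, *H2-Aa*, *C1qa*) had all DEX pools below every other pool. *Cd74* was the largest part of the sum in control, at 29.6, 42.8 and 104, against 3.48, 10.4 and 4.71 in DEX. *Csf1r* overlapped, at 10.7, 9.42 and 8.698 in control and 9.36, 11.1 and 12.4 in DEX. *Lyz2* also overlapped, at 10.7, 6.95 and 11.96 in control and 9.03, 12.9 and 14.9 in DEX. The lower sum is therefore not a fall of all 8 markers. No marker of that list was at 0 in a DEX pool, and its part in the *Crem* difference was not tested. In 1 week pool 3, where *Tbx19* and *Crhr1* (12.5) were lowest, *Crem* was at 195 and *Pomc* at 43612, both above every DEX pool. In DEX pool 3, where *Tbx19* was highest (1490) and *Pomc* lowest (4241), *Crem* was lowest. These are values of single pools. The part of corticotroph number or state in the *Crem* difference was not tested. Exons of *Crem* overlap those of *Gm6225* on the opposite strand over 8.01% of their length, and reads there cannot be assigned with certainty.

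**Figure D3:**
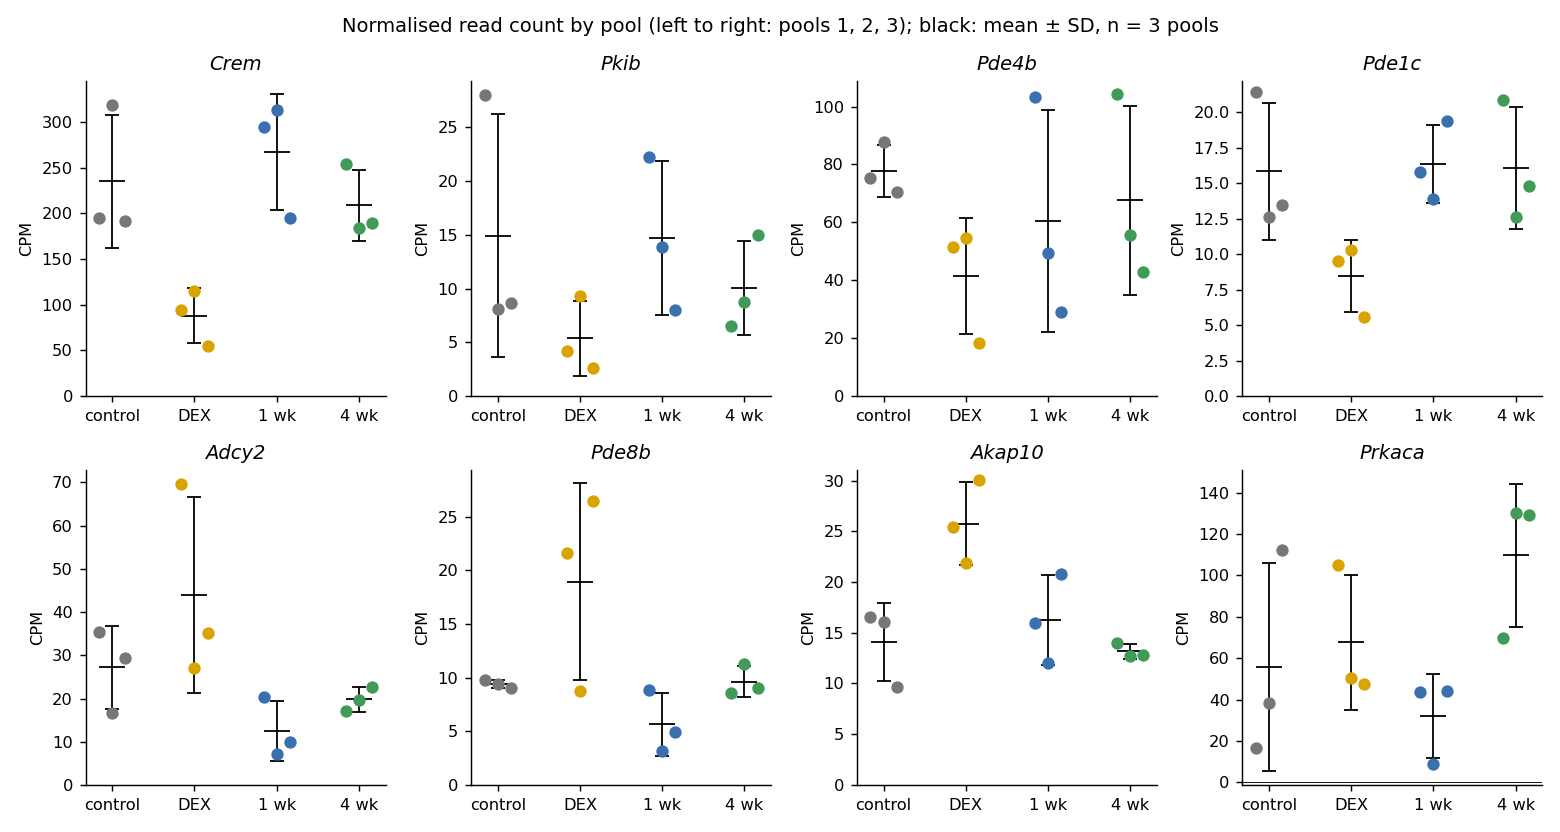
Normalised read count (CPM) in each pool (left to right, pools 1 to 3) for 8 genes in control, DEX and 1 and 4 weeks after withdrawal, with the mean ± SD (n = 3 pools) in black. The 3 DEX pools of *Crem* sit between 55.2 and 115 while all other pools are at 183 or higher, and *Prkaca* spans 8.92 to 130 with overlapping groups.

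In DEX the pools of the other CREB factors and of the coactivators overlapped control, except for *Crtc2*. *Creb1*, the classical PKA substrate that binds the response element, was at 37.5, 44.2 and 22.1 in control and at 35.0, 35.2 and 25.1 in DEX, and the pools overlapped. Its log2 fold change was -0.08 ± 0.29, and that of *Atf1* was -0.02 ± 0.31. *Crtc2*, a coactivator that enters the nucleus when dephosphorylated, was at 61.1, 61.1 and 53.7 in control and at 61.8, 62.9 and 64.3 in DEX. Its DEX pools lay just above control, at a log2 fold change of 0.11 ± 0.22, and above every pool of both withdrawal groups, whose means were 46.4 ± 9.53 and 50.6 ± 3.33. *Crtc3* was at 13.1, 12.96 and 24.7 in control and 15.7, 10.9 and 9.31 in DEX, a log2 fold change of -0.46 ± 0.52, and spread from 3.44 to 22.8 at 1 week (-0.63 ± 0.52 against control). *Crtc1* had log2 fold changes of 0.06 ± 0.31 in DEX and -0.39 ± 0.31 at 4 weeks against control. None of these differences was called.

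Among the adenylyl cyclases, 7 of 10 had a positive and 3 a negative log2 fold change in DEX, with a median of 0.44, and 8 of 10 were lower 1 week after withdrawal than in DEX, with a median of -0.38. *Adcy2*, a calcium-insensitive cyclase stimulated by G protein beta-gamma subunits, was at 35.4, 16.7 and 29.5 in control, 69.7, 27.1 and 35.1 in DEX, 20.2, 7.14 and 10.0 at 1 week and 17, 19.7 and 22.7 at 4 weeks. Its DEX pools overlapped control but lay above all pools after withdrawal. The log2 fold change between 1 week and DEX was -1.83 ± 0.41 (limma adjusted p = 0.0646; 0.000397 to 0.421 over the alternatives), and edgeR's likelihood ratio test and DESeq2 called it.

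*Adcy6*, a cyclase inhibited by calcium, was at 23.7, 34.2 and 40.8 in control and 33.0, 50.04 and 46.5 in DEX, with overlapping pools. *Adcy9*, a widely expressed cyclase, ranged from 2.36 to 7.18 in control, 2.24 to 3.25 in DEX, 0.510 to 8.12 at 1 week and 2.53 to 3.60 at 4 weeks, so its groups overlapped throughout. *Adcy3* was at 14.6, 6.12 and 7.45 at 1 week against 20.5, 14.1 and 19.1 in DEX, with 1 pool in the DEX range and a log2 fold change of -1.01 ± 0.35 (limma adjusted p = 0.256). Exons of *Adcy3* overlap *Cenpo* on the opposite strand over 22.1% of their length.

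A pair of cyclases were separated from control only at the limit of detection. *Adcy4* had 0 reads in all control pools, 1, 0 and 1 in DEX, 9, 1 and 7 at 1 week and 3, 10 and 4 at 4 weeks, and *Adcy10*, the soluble cyclase driven by bicarbonate, had 4, 2 and 3 in control, 0, 0 and 2 in DEX and 0 in every pool after withdrawal. A count of 0 allows up to 3 reads, so no fold change is given for either. The sum of 7 endothelial markers was 7.00 to 65.0 in control, 3.48 to 9.32 in DEX, 26.7 to 170 at 1 week and 80.8 to 154 at 4 weeks, and its part in the *Adcy4* counts was not tested.

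The phosphodiesterases had no common direction in DEX: of the 23 tested, 7 had a positive and 15 a negative log2 fold change, with a median of -0.12 (all genes -0.02). *Pde4b*, a cAMP-specific enzyme that PKA and CREB signalling induce in many tissues, was at 75.3, 87.9 and 70.5 in control and at 51.5, 54.5 and 18.4 in DEX. The DEX pools lay below control, at a log2 fold change of -1.06 ± 0.47 (limma adjusted p = 0.701). After withdrawal it spread widely, at 103, 49.3 and 28.9 at 1 week and 104, 55.6 and 42.8 at 4 weeks, overlapping control and DEX.

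*Pde4d*, of the same cAMP-specific family, was at 13.2, 10.0 and 15.3 in control and 5.96, 7.93 and 3.36 in DEX, a log2 fold change of -1.21 ± 0.46 (limma adjusted p = 0.589). It then overlapped both groups, at 5.10 to 13.3 at 1 week and 4.05 to 11.6 at 4 weeks. *Pde1c*, which is activated by calcium and calmodulin and cleaves both nucleotides, was at 21.4, 12.6 and 13.5 in control, 9.53, 10.3 and 5.61 in DEX, 15.8, 13.9 and 19.3 at 1 week and 20.9, 12.6 and 14.8 at 4 weeks. Like *Crem*, it had all 3 DEX pools below every other pool, with log2 fold changes of -0.90 ± 0.33 against control, 0.97 ± 0.33 for 1 week and 0.93 ± 0.33 for 4 weeks against DEX (limma adjusted p = 0.546, 0.244 and 0.276).

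Other phosphodiesterases had their highest values in DEX. *Pde8b*, a high-affinity cAMP enzyme, was at 9.76, 9.42 and 9.02 in control, 21.6, 8.75 and 26.5 in DEX, 8.84, 3.19 and 4.89 at 1 week and 8.59, 11.3 and 9.02 at 4 weeks. DEX pool 2 lay just below control and the other 2 DEX pools were the highest of the series. The difference between 1 week and DEX was -1.71 ± 0.42 (limma adjusted p = 0.0907; 0.00675 to 0.444 over the alternatives), and it was called without DEX pool 2 or 1 week pool 1, by edgeR's likelihood ratio test and by DESeq2. *Pde1a*, activated by calmodulin, was at 51.9, 29.5 and 53.3 in DEX against 22.6, 21.2 and 16.3 at 4 weeks, without overlap, at -1.12 ± 0.35 (limma adjusted p = 0.188). Its DEX pools overlapped control (51.1, 23.8 and 18.9) and the 1 week pools (30.0, 24.5 and 19.3).

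*Pde10a* and *Pde7b* had lower means at 4 weeks than in control. *Pde10a*, which cleaves both nucleotides, was at 87.9, 69.4 and 86.2 in control and 75.9, 33.8 and 35.7 at 4 weeks, where pool 1 overlapped control. The DEX (70.1, 62.8 and 51.4) and 1 week (61.8, 47.4 and 98.9) pools overlapped those at 4 weeks. *Pde7b*, cAMP-specific, was at 7.24, 6.60 and 4.89 in control and 3.60, 2.19 and 3.61 at 4 weeks, without overlap. It was also low in DEX (4.97, 3.35 and 2.69), where the pools overlapped those at 4 weeks, and was at 5.99, 3.70 and 7.45 at 1 week. The log2 fold changes between 4 weeks and control were -0.84 ± 0.33 and -0.99 ± 0.42 (limma adjusted p = 0.708 and 0.754). *Pde6d* had overlapping pools in control (41.6 to 66.1) and DEX (38.2 to 43.3), and *Pde6b*, a photoreceptor enzyme, had 6 reads at most in any pool.

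None of the 6 kinase subunits passed the test. *Prkar1a*, the type I alpha regulatory subunit that keeps the kinase inactive without cAMP, was at 999, 890 and 633 CPM in control, 675, 626 and 636 in DEX, 1058, 1087 and 567 at 1 week and 792, 772 and 724 at 4 weeks. The DEX pools lay in a narrow band around the lowest control pool and below all 4 weeks pools. The log2 fold change was -0.36 ± 0.31 against control (limma adjusted p = 0.890). Within the level per kilobase of all regulatory subunits, the share of *Prkar1a* was 76.4% ± 1.2 (SD, n = 3) in control and 69.0% ± 4.1 in DEX, and it was 75.7% ± 5.1 and 69.6% ± 3.6 in the groups 1 and 4 weeks after withdrawal. These shares were not tested. *Prkar1b* shares 8.95% of its exon length with *Gm15672* on the same strand.

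*Prkar2b*, the type II beta subunit, was at 24.8, 31.8 and 16.7 in control, 30.7, 25.9 and 23.9 in DEX, 40.8, 7.52 and 21.7 at 1 week and 47.2, 50.8 and 43.7 at 4 weeks. All 4 weeks pools lay above all others, at 0.99 ± 0.44 against control (limma adjusted p = 0.765). *Prkar2a* was at 29.1, 40.9 and 26.1 at 4 weeks against 9.28, 15.9 and 22.4 in control, at 1.07 ± 0.57 (limma adjusted p = 0.805), and DEX pool 1 (41.0) reached the same height.

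*Prkaca*, a catalytic subunit whose level per kilobase overlapped that of *Prkacb*, had a wide spread within the groups. It was at 16.8, 38.4 and 112 in control, 105, 50.4 and 47.3 in DEX, 43.7, 8.92 and 44.4 at 1 week and 69.9, 130 and 129 at 4 weeks. The 4 weeks pools lay above the 1 week pools, at 2.02 ± 0.64 (limma adjusted p = 0.701; 0.000797 to 1 over the alternatives), while control covered nearly the range of both. Pool 2 of the 1 week group had the lowest *Prkaca*, *Prkar2a* (3.82) and *Prkar2b* of the series and the highest *Pomc* (284740). *Prkacb* was at 193, 179 and 91.7 in control and 208, 187 and 213 in DEX, at 0.46 ± 0.29 with overlapping pools. The ratio of catalytic to regulatory transcripts per kilobase was 0.0940, 0.132 and 0.295 in control, 0.296, 0.208 and 0.190 in DEX, 0.133, 0.0636 and 0.181 at 1 week and 0.190, 0.276 and 0.297 at 4 weeks, so the control pools alone covered most of its range.

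**Figure D4:**
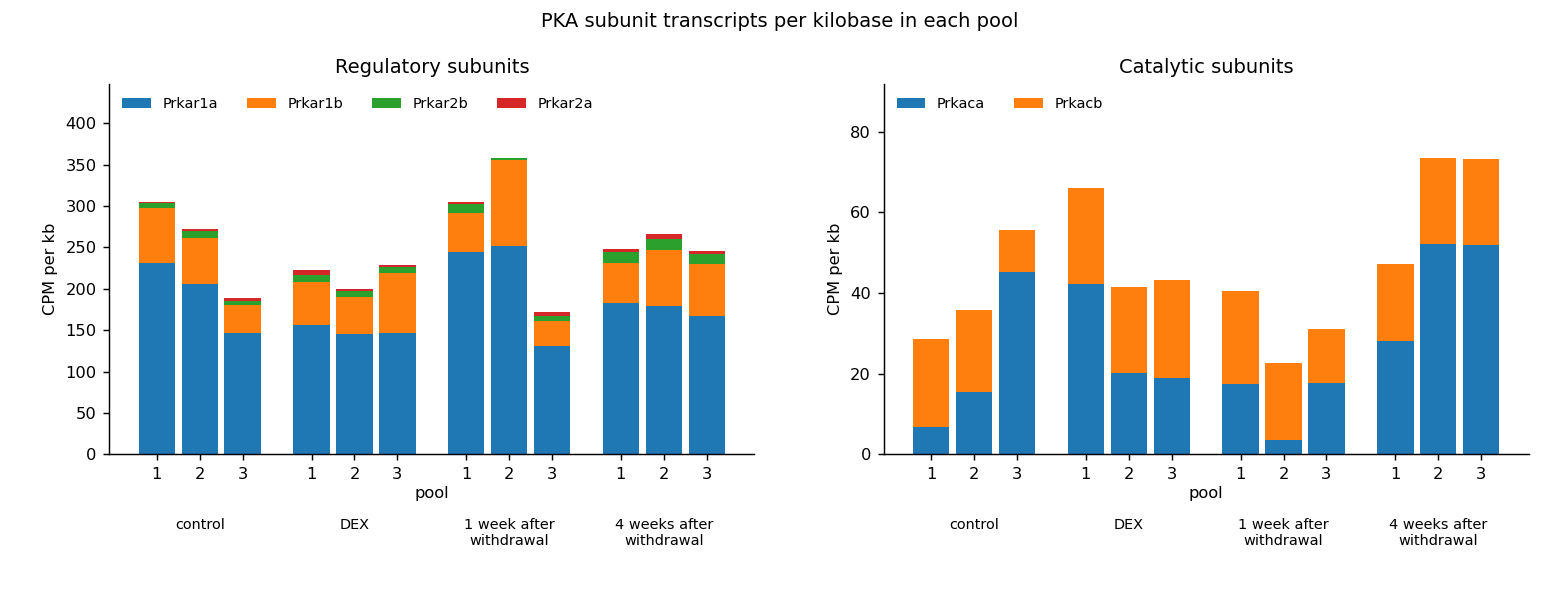
Transcripts of the 4 regulatory (left) and 2 catalytic (right) PKA subunits in each pool, stacked, in CPM per kilobase. *Prkar1a* makes up 64.5% to 80.3% of the regulatory transcripts in every pool, and the catalytic sum runs from 22.8 in 1 week pool 2 to 73.5 in 4 weeks pool 2.

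Of the 3 PKA inhibitors, *Pkib* had its lowest values in DEX. It was at 28.0, 8.13 and 8.70 in control, 4.22, 9.32 and 2.58 in DEX, 22.2, 13.9 and 8.0 at 1 week and 6.56, 8.76 and 15.0 at 4 weeks. DEX pool 2 lay within the control range, and the log2 fold change was -1.41 ± 0.55 (limma adjusted p = 0.618). *Pkig*, the most abundant inhibitor, was at 68.3, 47.7 and 92.9 in control and 56.7, 46.9 and 72.9 in DEX, at -0.21 ± 0.28. *Pkia* was at 27.1, 25.7 and 5.76 in control and 25.9, 23.6 and 34.2 in DEX, and also overlapped.

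The anchoring proteins held both signs, with 5 positive and 7 negative of 12 in DEX and a median of -0.26. *Akap10*, which binds both types of PKA, was at 16.5, 16.02 and 9.68 in control, 25.4, 21.8 and 30.1 in DEX, 15.97, 11.98 and 20.8 at 1 week and 13.9, 12.7 and 12.8 at 4 weeks. All 3 DEX pools were above every other pool, the reverse of the pattern of *Pde1c*. The log2 fold changes were 0.90 ± 0.29 against control, -0.69 ± 0.29 for 1 week and -0.95 ± 0.29 for 4 weeks against DEX (limma adjusted p = 0.445, 0.403 and 0.177).

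*Akap1*, which places PKA on the outer mitochondrial membrane, was at 9.36, 7.54 and 9.24 in control and 10.1, 13.98 and 23.1 in DEX, a log2 fold change of 0.77 ± 0.34 (limma adjusted p = 0.702), and of 0.45 without DEX pool 3. *Akap3*, known from sperm, had 3, 15 and 4 reads in control, 0, 2 and 0 in DEX, 10, 18 and 0 at 1 week and 10, 6 and 8 at 4 weeks, and no fold change is given at this depth. *Akap11* was at 160, 113 and 81.5 in control and 113, 87.0 and 53.4 in DEX, and *Akap8*, a nuclear anchor, at 68.0, 62.7 and 41.8 and 76.3, 84.9 and 45.6. Both overlapped control.

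After withdrawal the pools overlapped control for most genes. At 1 week the pools lay wholly above control for *Adcy4* alone (background 3.47%) and wholly below for *Adcy10* and *Pde8b* (2.61%). At 4 weeks they lay above control for 7 genes (*Adcy4*, *Adcy7*, *Akap1*, *Pde3b*, *Pde9a*, *Prkar2a*, *Prkar2b*; background 6.77%) and below for 3 (*Adcy10*, *Akap9*, *Pde7b*; 6.42%). None of these passed the test.

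Set against DEX, 5 genes had all 1 week pools higher (*Adcy4*, *Akap5*, *Crem*, *Pde1c*, *Pde6d*; background 6.97%) and 6 had them lower (*Adcy2*, *Adcy8*, *Akap10*, *Crtc2*, *Pde3a*, *Prkaca*; 6.87%). At 4 weeks 8 were higher (*Adcy4*, *Akap3*, *Akap5*, *Crem*, *Pde1c*, *Pde9a*, *Prkar1a*, *Prkar2b*; background 9.8%) and 9 lower (*Adcy2*, *Adcy5*, *Adcy8*, *Akap10*, *Akap13*, *Crtc2*, *Pde1a*, *Pde8a*, *Prkacb*; 9.67%). These comparisons share the DEX pools, so a gene named in both rests on the same 3 DEX libraries.

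Around these genes, 52 others of the pathway were counted, among them G protein subunits, receptors coupled to cAMP, the EPAC exchange factors, cyclic nucleotide gated channels, guanylyl cyclases, salt-inducible kinases and early targets such as *Fos*, *Nr4a1* and *Per1*. Of the 49 tested, 1 was called in 1 comparison: *Sstr2*, the somatostatin receptor that lowers cAMP through an inhibitory G protein, was higher at 4 weeks than in DEX (background 0.873% of all genes). None was called in the F test or the 5 other comparisons. At an unadjusted limma p under 0.05, 1 was higher and 2 were lower in DEX than in control (background 6.8% in either direction), with a median log2 fold change of -0.14 over the 49 genes. The study had already reported *Sstr2*, from these same libraries, as reduced by DEX and increased during recovery, so its call is not a separate observation.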

How the data were processed

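RNA-seq of 12 pools in 4 groups was analysed, with groups and pool numbers taken from the sample labels. The authors trimmed reads with Trim Galore 0.6.5, aligned them to GRCm38 with STAR 2.7.1a and counted pairs on genes with featureCounts 2.0.0, with a strand setting. The amplification and tagmentation kits do not mark strand, so reads of overlapping opposite-strand genes (13 of the 62 genes have such exons) cannot be told apart. Counted with that setting, such a library may also keep only the pairs that fell on one strand, so the read numbers given may be lower than the number of sequenced pairs on genes. The deposited values are a normalised signal, CPM of a library size that the authors had scaled with edgeR's TMM. The design had assumed plain CPM. The column sums showed otherwise, and the planned limma test was kept. All of the 271881 values above 0 (100%) lay within 0.001 of a whole number of reads once divided by the value of 1 read.

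With R 4.3.3 and limma 3.58.1, log2(value + 0.1) of the 24736 genes above 0.1 in at least 3 libraries was fitted over all 12 libraries without covariates (lmFit, eBayes with trend). p-values were adjusted over all genes by Benjamini-Hochberg, and 0.05 was the threshold. edgeR 4.0.16 and DESeq2 1.42.0 were run on the recovered reads as alternatives, with other pseudocounts, filters, scalings, weights, a replicate block and each library left out. The fits were tested on simulated data. Lengths and positions came from GENCODE M21 (GRCm38), promoters from RefSeq (GRCm38.p6). Fold changes of genes with few reads are understated by the pseudocount of 0.1.

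Genes described were all called ones, the 5 with the smallest p in each comparison with control, the most abundant per kilobase of each role (and the next where ranges overlapped), those whose DEX pools lay outside control by a log2 fold change past 0.5, and *Prkar1a*, *Prkaca*, *Crem*, *Creb1*, *Adcy9* and *Pde4b*. Other genes named in counts of pools apart, with *Adcy3*, *Atf1*, *Pde1a*, *Pkia* and *Prkar2a*, were chosen after their values were seen. The genes and lists were chosen with earlier results of these data known. Of the other marker lists, melanotroph genes summed to 39.7 to 150, gonadotroph genes to 370 to 988, thyrotroph genes to 43.9 to 711, stem and folliculostellate genes to 60.7 to 157, pericyte and fibroblast genes to 77.3 to 293, erythroid genes to 0.899 to 35.7 and posterior lobe glia genes to 0 to 1.40 over the 12 libraries.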

Additional observations from a re-analysis of the deposited data

Results flagged for a closer look

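*Crem* was marked for a closer look because its change against control under DEX and its change 1 week after withdrawal differed. Both changes share the control pools, so this is the comparison of 1 week with DEX already given, not a further test. The 1 week pools stood 1.63 above the DEX pools on the log2 scale (limma adjusted p = 0.0297, and 0.000197 to 0.301 over the alternatives). All 3 of the 1 week pools lay above every DEX pool. The call was lost without DEX pool 1 or 3, 1 week pool 1 or 2, or 4 weeks pool 2 or 3, without the filter on low values and with only the 2 groups compared.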

How the results depend on the processing

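The 33 fold changes of single genes recomputed were those with an unadjusted limma p under 0.05 among the genes described by rule. Genes chosen after their values were seen, *Adcy3*, *Pde1a* and *Prkar2a* among them, were not recomputed. Of the alternative values of these 33 fold changes, 450 differed from the value reported, and none of these changed sign. Fold changes picked by a small p in the same data seldom change sign, so this is no independent check. Of the counts of called genes, the F test gave 2 under array weights (*Adcy4*, *Crem*; background 4.32%), 5 under edgeR's likelihood ratio test (4.23%) and 3 under DESeq2 (3.68%). DEX against control gave 1 (*Crem*) under array weights (0.671%), the likelihood ratio test (1.09%) and DESeq2 (0.977%), and 4 weeks against control 1 (*Adcy4*) under array weights (0.752%). For 1 week against DEX, *Crem* was not called without the filter on low values (limma adjusted p = 0.236) or with only the 2 groups compared (0.301), which left 0 genes under each (0.0452% and 0%), and the count was 2 under array weights (2.29%), 5 under the likelihood ratio test (2.88%) and 3 under DESeq2 (3.02%). For 4 weeks against DEX it was 5 under array weights (5.26%), 1 under the likelihood ratio test (2.72%) and 2 under DESeq2 (3.21%), and 4 weeks against 1 week gave 1 (*Prkaca*) under the likelihood ratio test (0.655%). Apart from the replicate block and the libraries left out, both given next, each other setting stayed at the counts of calls reported, and the cause of these shifts was not tested.

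Leaving out 1 library gave 0 to 1 genes in the F test (1, *Crem*, without 1 week pool 3), 0 to 2 for 1 week against DEX (2 without DEX pool 2, and *Adcy2* and *Pde8b* in place of *Crem* without 1 week pool 1) and 0 to 1 for 4 weeks against DEX (*Crem*, without 1 week pool 2 or 3), where 0.0287% to 0.777%, 0.0287% to 0.821% and 0.0776% to 1.68% of all genes were called. Any pool left out can only add to the genes with pools wholly apart. These numbered 15 to 19 for DEX and control, 4 to 11 for 1 week and control and 12 to 23 for 4 weeks and control. Set against DEX, they numbered 13 to 19 at 1 week and 19 to 26 at 4 weeks. Quantile normalisation gave 5 for 1 week and control. The share over all genes was not computed for these counts, so no result about the set is read from them.

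Pools that share a number were not shown to be paired: 7 of 18 same-numbered pairs had a correlation of deviations over 0.1 (median 0.0559). The fit with a replicate block called 1 gene in the F test (*Crem*; background 0.344%), 2 for 1 week against DEX (*Crem*, *Adcy2*; 0.562%) and 1 for 4 weeks against DEX (*Crem*; 0.974%), and 0 elsewhere. The pools of 3 and single reads near 0.1 CPM limit what could be detected for the low *Adcy*, *Akap* and *Pde* genes.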
